A study of Mus musculus with 8 samples.

Results

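The nuclear genes of the mitochondrial respiratory chain were followed in whole cerebellum at 28 days of age, in 4 wild-type mice and in 4 mice that the labels call Cic-L-null. The mutants carry an altered Capicua gene (Cic), which encodes a DNA-binding repressor of genes downstream of receptor tyrosine kinases. All 8 mice share a mixed Swiss Webster (CD-1) background, and no other allele, agent or treatment is named for either group. The labels give neither the construction of the allele nor any restriction of it to a cell type. Members were chosen by a rule on names, with earlier results of these data known. They are every gene whose platform symbol begins like a subunit of complexes I to V (Nduf, Sdh, Uqcr, Cox4 to Cox8 and Atp5). The rule found 81 of 20352 measured genes, namely 34 of complex I, 4 of complex II, 7 of complex III, 20 of complex IV, 15 of complex V and Emc8. Emc8 matched only through its older symbol Cox4nb and encodes a subunit of the endoplasmic reticulum membrane complex. Values are log2 expression per gene from 1 Affymetrix Mouse Gene 1.0 ST array per animal.

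The respiratory chain sits in the inner mitochondrial membrane. Complex I (NADH dehydrogenase) and complex II (succinate dehydrogenase) pass electrons to ubiquinone, complex III passes them to cytochrome c, complex IV (cytochrome c oxidase) passes them to oxygen, and complex V (ATP synthase) makes ATP from the proton gradient that complexes I, III and IV build. Complex II is encoded wholly in the nucleus, whereas the others also hold subunits made from mitochondrial DNA, which are not analysed here. Neurons of the cerebellum depend on this chain for the ATP that restores their ion gradients.

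RNA of the altered gene was checked first. Cic measured 8.74, 8.57, 8.63 and 9.19 in wild-type and 7.501, 7.48, 7.62 and 7.54 in Cic-L-null arrays, so the groups did not overlap, and it passed the test (limma adjusted p = 0.00818). This p was 0.0589 with Cic-L-null replicate 2 left out, 0.0564 with the replicate block and 0.157 in the unmoderated test. The tissue label was checked against markers, with the 95th percentile of 985 olfactory receptor genes, 6.21, as a limit for dim signal. All 11 measured granule cell markers and all 11 of Purkinje cells lay above the dim limit, whereas 2 of 7 markers of forebrain and brainstem did. All 12 measured markers of mature oligodendrocytes had differences below 0, with 0 called. Their mean level lay between 10.004 and 10.11 in wild-type and between 9.85 and 9.95 in Cic-L-null arrays, so the groups did not overlap. Of 12 markers of Bergmann glia and astrocytes, 10 were below 0 and Fabp7, a fatty acid binding protein, was called (-1.17, limma adjusted p = 0.018). The gene no longer passed when Cic-L-null replicate 2 (limma adjusted p = 0.0592), Cic-L-null replicate 4 (0.0564) or wild-type replicate 2 (0.0682) was left out. Nor did it pass with the median of probe sets (0.0514), the replicate block (0.0772) and the unmoderated test (0.208). The mean level of these 12 markers lay between 10.07 and 10.19 in wild-type and between 9.94 and 9.99 in Cic-L-null arrays. It includes Fabp7, by far the largest difference of the list, and the level without this gene was not computed. The 2 markers above 0 were Glul, at 0.26 (SE 0.10), and Slc1a2, at 0.12 (SE 0.057). All markers of both lists lay above the dim limit. The level of granule cell markers lay between 11.52 and 11.61 in wild-type and between 11.57 and 11.63 in Cic-L-null arrays. The part of these shifts in the member values was not tested, and in whole tissue fewer cells of a type and less RNA per cell cannot be told apart. The label of wild-type replicate 1 names another RNA extraction than those of the other 7 arrays, and the labels do not settle whether the handling itself differed.

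None of the 81 genes passed the test between Cic-L-null and wild-type cerebellum. With limma, 0 of 81 had a Benjamini-Hochberg adjusted p under 0.05, and the smallest adjusted p was 0.481. Over all genes 28 of 20352, or 0.138%, were called, 18 higher and 10 lower. At an unadjusted p under 0.05 there was 1 member, Cox6b2, against 9.26% of all genes. In 0 of the 81 members did the 4 mutant arrays lie wholly above or below the 4 wild-type arrays, against 5.94% of all genes. The count of 28 over all genes depended on single arrays. It was 0 when Cic-L-null replicate 2 was dropped and 7 when Cic-L-null replicate 1 was. It was 3 when the array dropped was Cic-L-null replicate 4, and also for the second or the third wild-type animal, and 5 for the fourth. Not every omission lowered the count, and its full range is given in the last section. The count of members called was 0 each time. With so few calls over all genes, this count does not set the members apart from other genes.

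The differences of the members were small, and the data bound them closely. Differences are given as Cic-L-null minus wild-type on the log2 scale, and they ran from -0.16 for Cox6a2 to 0.19 for Cox6b2. Of the 31 members named by rule, 26 had a difference that moved by over 1.5 times when 1 array was left out, and the 5 that did not were Ndufa5, Sdha, Cox6b2, Atp5j and Atp5pb. The median over all 81 was -0.022, beside -0.0071 over all genes, with 53 members below 0 (65.4%) and 28 above. Differences below 0 were found in 53.0% of all genes and in 50.8% of genes above the dim limit. The counts by complex further on are to be read beside these shares. The 95% confidence interval of the difference lay within 0.25 log2 units of 0, a 1.19-fold change, for 70 of 81 members (86.4%), beside 52.1% of all genes and 57.8% of genes above the dim limit. It lay within 0.5 log2 units, a 1.41-fold change, for 80 of 81, and the exception was Cox7b. Nearly all members lay above the dim limit. In all, 79 of 81 had a mean above it, beside 14010 of 20352 genes. The 2 below it were Cox7b2 and Cox8c, isoforms known from testis. Cox8b and Ndufa4l2 lay only a little above it, with wild-type means of 6.38 and 6.63.

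**Figure D1:**
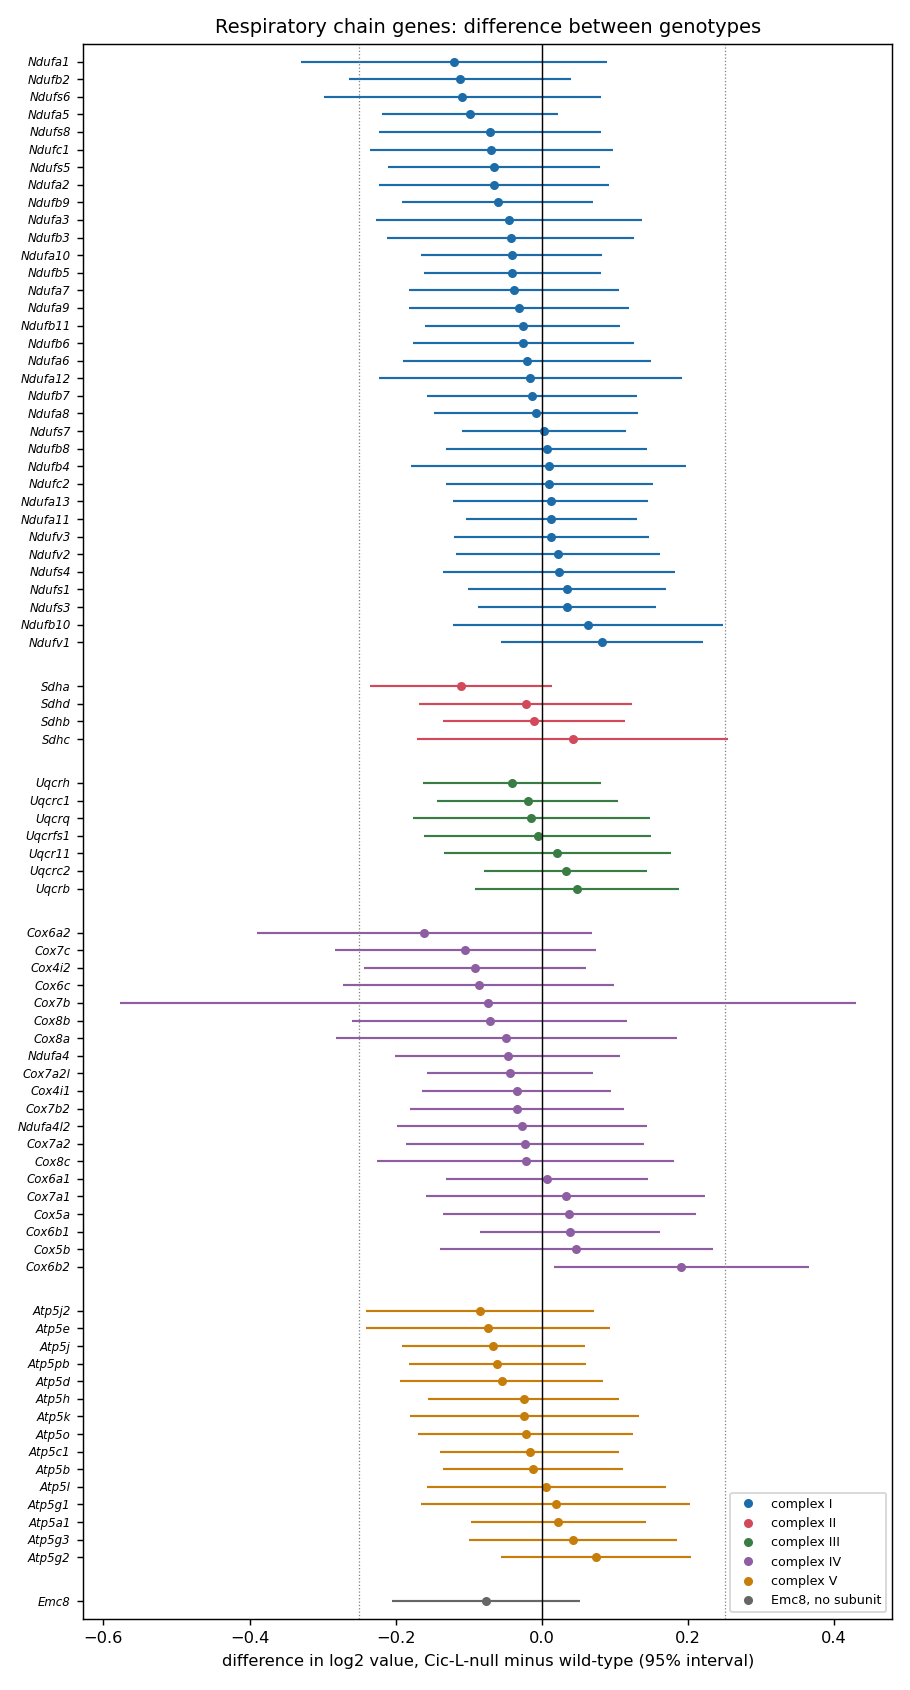
Difference in log2 value between Cic-L-null and wild-type cerebellum (x axis) for each of the 81 members (y axis), grouped by complex. Points are differences of means over 4 against 4 arrays, bars are 95% confidence intervals from limma, and dotted lines mark 0.25 log2 units on either side of 0. The bar of Cox6b2 alone leaves out 0, and that of Cox7b is the widest.

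The promoters of 4 genes are shown as picked examples and do not stand for the members as a set. Windows from 250 bases before to 50 bases after the gene start were taken from RefSeq on GRCm38.p6, and 66 of 81 members had at least 1, with 71 windows in all. Capicua is known to bind the octamers TGAATGAA and TGAATGGA. Both strands were searched, and a window can hold more than 1 motif. The first was found in 1 of 71 member windows (1.41%) and in 1.303% of all 32851 windows, the second in 1 of 71 (1.41%) and in 1.21%. The 10-base palindrome bound by NRF1, a known activator of respiratory chain genes, was found in 5 of 71 member windows (7.04%) and 0.971% of all. ACTTCCGG, a site type of ETS factors such as GABPA, was found in 5 of 71 (7.04%) and 3.89% of all. A match describes letters only and shows no binding. The windows of Ndufc1 (chr3:51408906-51409205, minus strand) and Cox8a (chr19:7217567-7217866, minus strand) are shown because they hold the Capicua octamers, that of Uqcrc1 (chr9:108936398-108936697, plus strand) for its NRF1 palindrome and that of Cox7b (chrX:106015450-106015749, plus strand) because this gene varied most between animals. The Cox8a window is also among the 5 with the ETS motif. Capitals mark only the match for which a window is shown, which begins 133 bases before the start in Ndufc1, 218 bases before it in Cox8a and after the start in Uqcrc1, and the Cox7b window held none of the 4 motifs.
Ndufc1: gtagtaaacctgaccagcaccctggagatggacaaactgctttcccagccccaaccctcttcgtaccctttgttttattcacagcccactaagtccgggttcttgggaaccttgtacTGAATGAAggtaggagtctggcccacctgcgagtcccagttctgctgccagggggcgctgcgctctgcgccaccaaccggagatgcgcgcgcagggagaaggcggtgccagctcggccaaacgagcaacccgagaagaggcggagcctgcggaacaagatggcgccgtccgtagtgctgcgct
Cox8a: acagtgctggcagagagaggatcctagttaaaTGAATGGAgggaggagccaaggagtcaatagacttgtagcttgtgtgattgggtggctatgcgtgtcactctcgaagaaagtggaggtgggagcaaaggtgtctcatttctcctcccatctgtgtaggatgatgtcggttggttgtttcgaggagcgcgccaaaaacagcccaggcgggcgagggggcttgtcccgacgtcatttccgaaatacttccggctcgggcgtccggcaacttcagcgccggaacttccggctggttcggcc
Uqcrc1: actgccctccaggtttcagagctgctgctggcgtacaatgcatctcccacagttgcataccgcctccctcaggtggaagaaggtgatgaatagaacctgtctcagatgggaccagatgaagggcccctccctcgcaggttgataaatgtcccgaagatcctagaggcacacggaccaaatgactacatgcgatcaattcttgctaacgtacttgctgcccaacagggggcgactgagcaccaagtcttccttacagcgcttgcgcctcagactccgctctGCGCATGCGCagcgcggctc
Cox7b: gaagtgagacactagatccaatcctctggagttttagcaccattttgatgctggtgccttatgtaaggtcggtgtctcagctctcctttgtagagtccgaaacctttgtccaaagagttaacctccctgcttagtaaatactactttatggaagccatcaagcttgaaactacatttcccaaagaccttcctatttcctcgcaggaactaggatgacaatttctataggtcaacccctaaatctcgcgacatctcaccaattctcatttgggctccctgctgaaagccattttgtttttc

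The genes behind these windows showed no call. Ndufc1, an accessory subunit of complex I, had log2 values of 9.22, 9.38, 9.24 and 9.51 in wild-type and 9.36, 9.26, 9.21 and 9.25 in Cic-L-null arrays, a difference of -0.069 (SE 0.075, limma adjusted p = 0.858). Only wild-type replicates 2 and 4 lay above all mutants. Cox8a, the common form of the smallest subunit of complex IV, had 10.34, 10.85, 10.68 and 10.81 in wild-type and 10.71, 10.67, 10.59 and 10.52 in Cic-L-null arrays. The difference was -0.048 (SE 0.11, limma adjusted p = 0.941). It rested on single arrays, at -0.16 with the low wild-type replicate 1 left out, 0.011 with wild-type replicate 2 left out and -0.0017 with wild-type replicate 4 left out. Uqcrc1, a core subunit of complex III, lay between 10.83 and 10.96 in wild-type and between 10.82 and 10.90 in Cic-L-null arrays, with a difference of -0.019.

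Complex I was represented by 34 genes, with 21 differences below 0 and 13 above and a median of -0.023. Its range ran from -0.12 for Ndufa1 to 0.083 for Ndufv1. Most core subunits in the matrix arm carry the flavin or the iron-sulphur clusters through which electrons travel. Of the 6 measured core genes (Ndufs1, Ndufs3, Ndufs7, Ndufs8, Ndufv1 and Ndufv2), 5 had differences above 0 and Ndufs8, at -0.071, lay below. Of the 28 accessory genes, 20 lay below 0, with a median of -0.029 against 0.028 for the core. The split follows known subunit roles but was made with results known, and 0 genes on either side were called.

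Ndufa5, an accessory subunit of the arm that reaches into the matrix, had the smallest p of the complex. It measured 9.30, 9.38, 9.38 and 9.35 in wild-type and 9.26, 9.24, 9.32 and 9.20 in Cic-L-null arrays, and the groups overlapped only because Cic-L-null replicate 3 lay above wild-type replicate 1. The difference was -0.099 (SE 0.054, limma adjusted p = 0.650), and all 5 of its probe sets were below 0. Ndufb2, an accessory subunit of the membrane arm, measured 8.71, 8.74, 8.50 and 8.75 in wild-type and 8.60, 8.53, 8.52 and 8.61 in Cic-L-null arrays. Wild-type replicate 3 was the lowest of all 8, so the groups overlapped, and the difference was -0.11 (SE 0.069, limma adjusted p = 0.688).

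The other complex I genes with low p differed in what set them apart. Ndufv1, which encodes the subunit that binds NADH and the flavin, measured 10.81, 10.74, 10.75 and 10.57 in wild-type and 10.79, 10.79, 10.79 and 10.82 in Cic-L-null arrays. The mutants sat close together while wild-type replicate 4 lay low, and the difference was 0.083 (SE 0.062). Ndufs6 measured 9.97 in wild-type replicate 1 and between 10.29 and 10.32 in the other wild-type arrays, against 10.02 to 10.16 in the mutants. The difference was -0.11 (SE 0.086, limma adjusted p = 0.779). With wild-type replicate 1 left out the groups of this gene do not overlap, and the difference is -0.20 (limma adjusted p = 0.223). Ndufa1, an X-linked subunit needed for assembly, measured 9.25, 9.35, 9.16 and 9.45 in wild-type and 9.43, 9.15, 9.13 and 9.03 in Cic-L-null arrays, a difference of -0.12 (SE 0.095). Only Cic-L-null replicate 1 of the mutants reached the upper wild-type values.

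Complex II held the second smallest p among members, in Sdha, the subunit that oxidises succinate. It measured 11.28, 11.37, 11.32 and 11.33 in wild-type and 11.18, 11.31, 11.19 and 11.17 in Cic-L-null arrays. Cic-L-null replicate 2 lay within the wild-type range and the other 3 mutants below it, for a difference of -0.11 (SE 0.056, limma adjusted p = 0.608). The gap came mostly from few probe sets. Of the 15 Sdha probe sets, 3 had differences below -0.25 (10410626, 10410633 and 10410636). Averaged over these, wild-type arrays lay between 11.48 and 11.63, Cic-L-null replicate 2 at 11.58 and Cic-L-null replicates 1, 3 and 4 at 10.90, 11.01 and 10.96. Averaged over the other 12, wild-type arrays lay between 11.22 and 11.32 and mutants between 11.22 and 11.25, with a difference of -0.026. The 3 probe sets were taken for their differences, so the split is a description and not a test. Probe set 10410633 had a difference of -0.59 (SE 0.19) but was not called among all 241576 probe sets (limma adjusted p = 0.620). Where on the transcript each probe set lies is not known from the files.

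The other genes of complex II had overlapping groups. Sdhb, the iron-sulphur subunit, lay between 9.13 and 9.19 in wild-type and between 9.10 and 9.24 in Cic-L-null arrays, a difference of -0.011 (SE 0.056), which became 0.11 with the median of its probe sets as gene value. Sdhc and Sdhd anchor the complex in the membrane. Sdhc measured 10.67, 10.87, 10.82 and 10.87 in wild-type and 10.92, 10.57, 10.88 and 11.03 in Cic-L-null arrays, so that the mutants held both the lowest and the highest value. Its difference was 0.042 (SE 0.096), and that of Sdhd was -0.022 (SE 0.066).

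Complex III varied least in its differences, from -0.041 for Uqcrh to 0.048 for Uqcrb, with 4 of 7 below 0. Uqcrb, a small subunit near the ubiquinone site, rested on 1 probe set of its own, since 5 others also carried another symbol. It measured between 9.37 and 9.43 in wild-type arrays and 9.59, 9.39, 9.43 and 9.36 in Cic-L-null arrays, where Cic-L-null replicate 1 was the highest of all 8. Uqcrh, the hinge protein that binds cytochrome c1, lay between 11.30 and 11.44 and between 11.28 and 11.33. Uqcrc2, a core subunit with 17 probe sets, had the smallest SE of the complex and a difference of 0.033 (SE 0.050, limma adjusted p = 0.903).

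**Figure D2:**
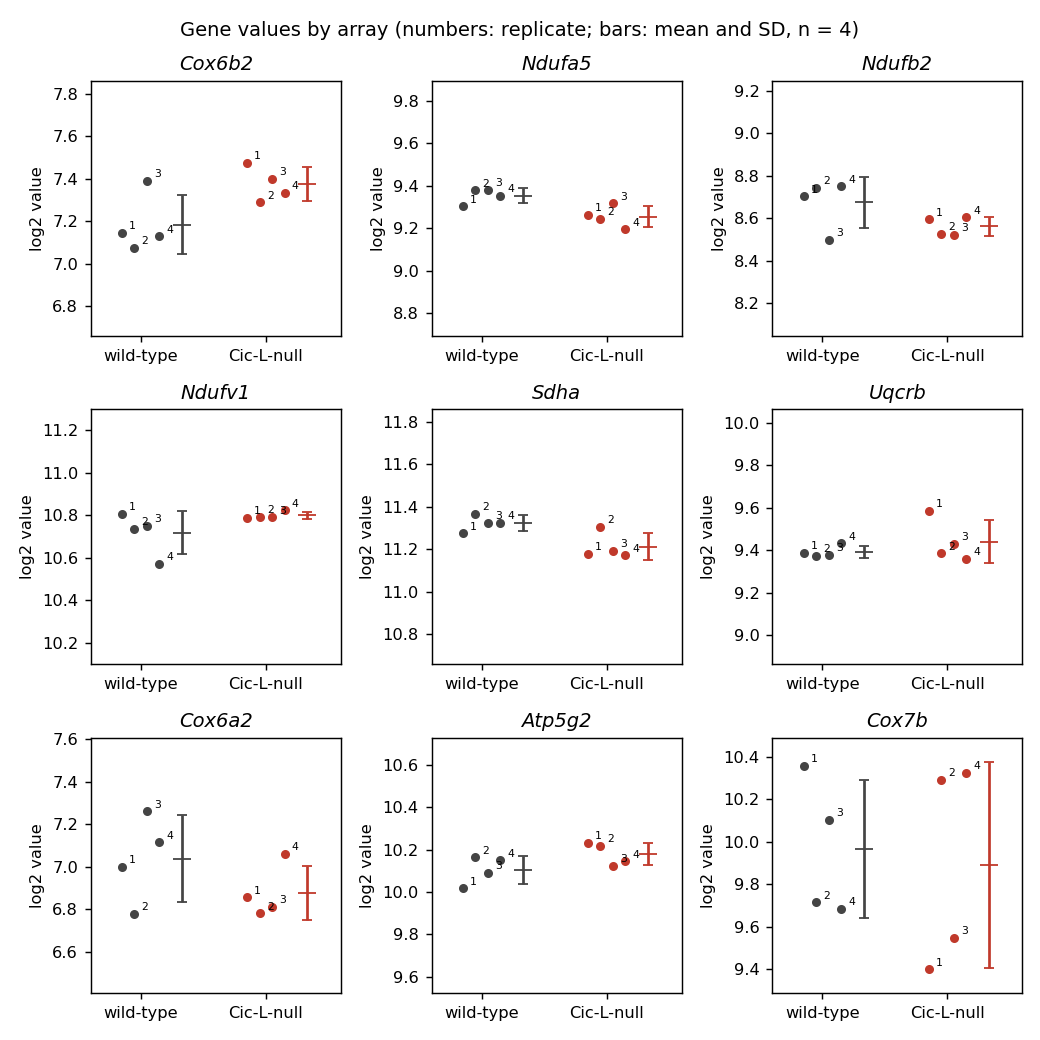
Log2 gene value (y axis) of 9 members in each array, wild-type in dark grey and Cic-L-null in red, with the replicate number beside each point and the mean and SD of 4 arrays beside each group. In Cox7b each group holds a high and a low pair of arrays, and the groups overlap in all 9 panels.

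Complex IV held the highest difference of the chain, that of Cox6b2, here and under each of the 18 alternatives. The lowest, that of Cox6a2, was not fixed. The lowest member was the complex I gene Ndufs6 with array weights or with wild-type replicate 1 left out, Ndufb2 with wild-type replicate 3 left out and Ndufa1 with Cic-L-null replicate 1 left out, and it was the complex III gene Uqcrq over brighter probe sets. Cox6b2, a form of subunit 6B known from testis, measured 7.14, 7.07, 7.39 and 7.13 in wild-type and 7.48, 7.29, 7.40 and 7.33 in Cic-L-null arrays. The 4 mutants lay above wild-type replicates 1, 2 and 4, while wild-type replicate 3 lay among them. The difference was 0.19 (SE 0.079, 95% interval 0.017 to 0.37), and the unadjusted p of 0.035 became 0.481 after limma's adjustment over all genes. Of its 7 probe sets, 6 were above 0, from 0.055 to 0.49, and 1 was at -0.19. Its common counterpart Cox6b1 lay between 10.80 and 10.90 in wild-type and between 10.81 and 10.93 in Cic-L-null arrays, a difference of 0.038 (SE 0.055).

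Complex IV has several subunits with tissue forms, and the other pairs gave no call. Cox6a2, the heart and muscle form of subunit 6A, measured 7.002, 6.78, 7.26 and 7.11 in wild-type and 6.86, 6.78, 6.81 and 7.06 in Cic-L-null arrays, a difference of -0.16 (SE 0.10, limma adjusted p = 0.705). Wild-type replicate 2 lay at the level of the lowest mutants, and the difference was -0.25 with this array left out and -0.087 with wild-type replicate 3, the highest, left out. Cox6a1, its common form, differed by 0.0070 (SE 0.063). Cox4i2, the oxygen-responsive form of subunit 4 known from lung, differed by -0.092 (SE 0.068) and Cox4i1 by -0.034 (SE 0.058). Cox7a1, the muscle form of subunit 7A, differed by 0.033 (SE 0.086) and Cox7a2 by -0.023 (SE 0.073). Cox8b, another muscle form, differed by -0.071 (SE 0.085), but by 0.0039 with wild-type replicate 3 left out and by 0.011 over its brighter probe sets. Over the 8 genes taken as tissue-restricted forms, 6 differences were below 0, and over the other 12 genes of the complex 8 were.

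Ndufa4, which carries the name of a complex I gene but encodes a subunit of complex IV, lay between 11.51 and 11.78 in wild-type and between 11.50 and 11.60 in Cic-L-null arrays, a difference of -0.047 (SE 0.069). Its relative Ndufa4l2, known to be induced by low oxygen, differed by -0.027 (SE 0.077). Cox7c differed by -0.10 (SE 0.080) on 1 probe set of its own, with 4 more shared with another symbol. Wild-type replicate 4, at 11.23, was its highest array, and with it left out the difference was -0.037. Emc8, outside the chain, differed by -0.077 (SE 0.058), and with the median of its probe sets by 0.062.

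Cox7b, a small X-linked subunit of complex IV, varied more between animals than any other member. It was chosen for this spread after its values were seen. It measured 10.36, 9.72, 10.10 and 9.68 in wild-type and 9.40, 10.29, 9.55 and 10.33 in Cic-L-null arrays. The values of replicates 1 and 3 in wild-type and of replicates 2 and 4 in Cic-L-null lay between 10.10 and 10.36 and the other 4 arrays between 9.40 and 9.72, so each genotype held both levels. The range of 0.96 log2 units exceeded that of 98.3% of all genes, whereas the median range of the members was 0.25 beside 0.34 over all genes. The difference between genotypes was -0.074 (SE 0.23). Each of the 3 Cox7b probe sets showed the same 4 arrays high.

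The neighbour of Cox7b on the X chromosome had the same high and low arrays. Magt1, the next measured gene on one side and a magnesium transporter and glycosylation gene, measured 9.82, 9.02, 9.49 and 8.86 in wild-type and 8.89, 9.57, 8.96 and 9.58 in Cic-L-null arrays, a range of 0.96. Atp7a, the next measured gene on the other side, had a range of 0.47, with wild-type replicate 3 lowest and Cic-L-null replicate 1 highest. Atrx, the next beyond Magt1, had a range of 0.16. The cause of this spread was not tested.

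**Figure D3:**
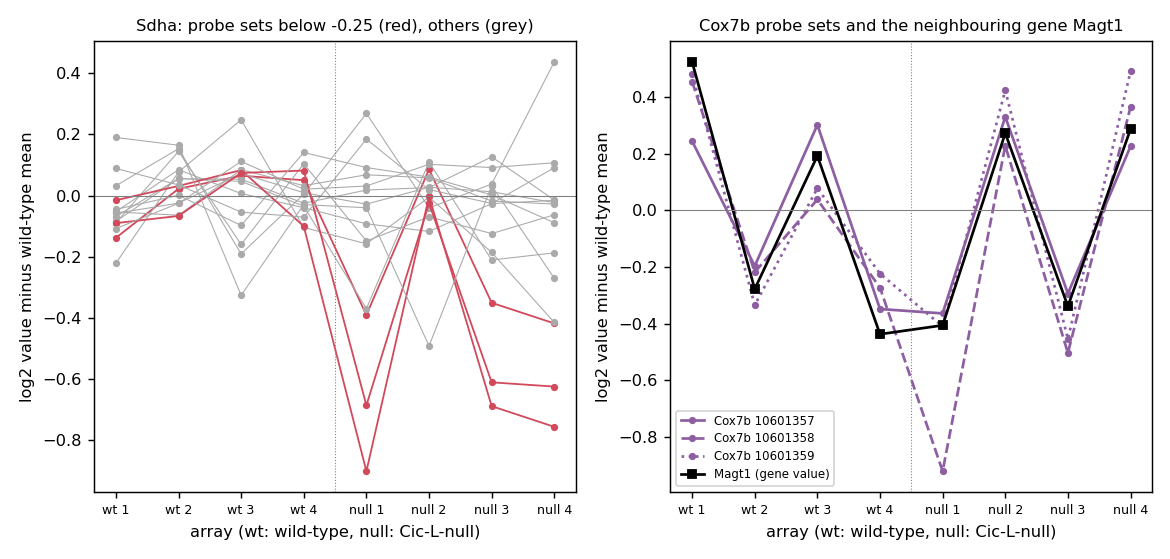
Log2 value minus the wild-type mean (y axis) in each of the 8 arrays (x axis) for the 15 probe sets of Sdha (left) and for the 3 probe sets of Cox7b with the gene value of Magt1 (right). Lines join the points of 1 probe set or gene and imply no order. In Sdha the 3 red probe sets are low in Cic-L-null replicates 1, 3 and 4, and on the right the same 4 arrays are high in every line.

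Complex V had 10 of 15 differences below 0 and a median of -0.022. Its 95% intervals all lay within 0.25 log2 units of 0, which was also so for the 7 genes of complex III. Atp5g2, 1 of 3 genes that encode the same ring subunit of the membrane rotor, measured 10.02, 10.16, 10.09 and 10.15 in wild-type and 10.23, 10.22, 10.12 and 10.15 in Cic-L-null arrays. Its difference of 0.074 (SE 0.059, limma adjusted p = 0.782) was the highest of the complex, and all 7 probe sets were above 0. The other ring genes, Atp5g1 and Atp5g3, differed by 0.019 and 0.043. Atp5j2, a membrane subunit, measured 10.96, 11.17, 11.13 and 11.25 in wild-type and 11.04, 11.02, 11.11 and 11.003 in Cic-L-null arrays. Its difference of -0.085 (SE 0.070) was the lowest of the complex, and wild-type replicate 1 lay below every mutant.

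The stalk and head genes of ATP synthase gave 0 calls. Atp5j, a stalk subunit with 1 probe set of its own, differed by -0.067 (SE 0.057), and Atp5pb, the b subunit of the stalk, by -0.061 (SE 0.054). The catalytic head genes Atp5a1 and Atp5b differed by 0.023 and -0.012. Over the 5 head genes 4 differences were below 0, and over the other 10 genes 6 were.

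The level of the chain as a whole overlapped between the genotypes. For each array the median deviation of the 81 genes from their own means over the 8 arrays was computed. In wild-type replicates 1 to 4 it was -0.030, 0.026, -0.011 and 0.056. In the 4 Cic-L-null arrays, in the order of their numbers, it was 0.029, -0.018, 0.012 and -0.050. Wild-type replicate 4 was highest and Cic-L-null replicate 4 lowest, and the groups overlapped. In Cic-L-null replicate 4 complexes I, II, III and V lay at -0.052, -0.076, -0.046 and -0.053, whereas complex IV lay at -0.0048. This array held the lowest of the 8 values for 22 of 81 members (27.2%), beside 15.1% of all genes, and wild-type replicate 4 held it for 1 member (1.23%), beside 9.66%. The median difference was -0.011 without Cic-L-null replicate 4, with 45 members below 0, and -0.0013 without wild-type replicate 4, with 44 below 0. Without wild-type replicate 1, whose extraction label differs, it was -0.031.

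**Figure D4:**
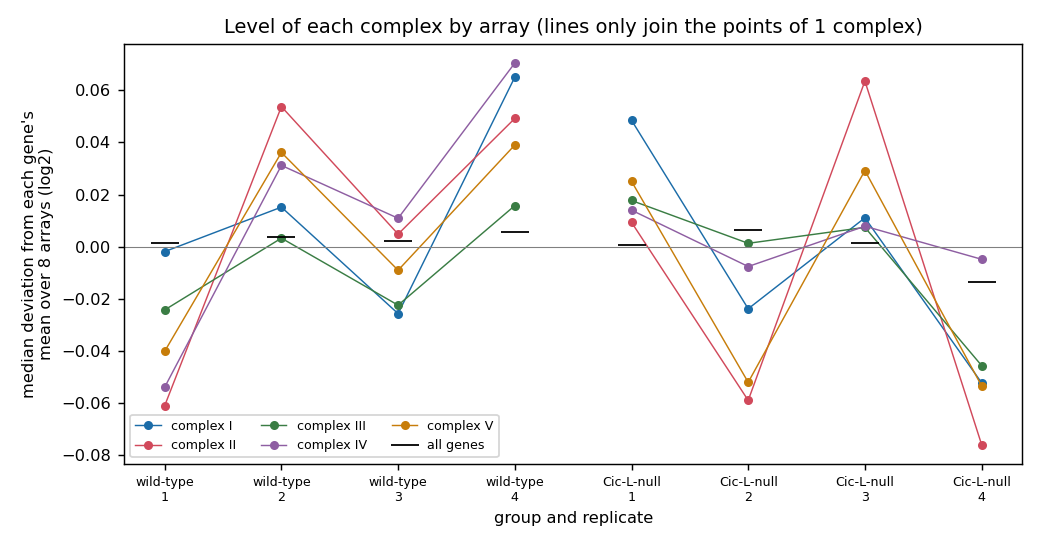
Median deviation of the genes of each complex from their mean over the 8 arrays (y axis, log2) in each array (x axis), with the same median over all genes as black bars. Wild-type replicate 4 lies above 0 in every complex, and Cic-L-null replicate 4 lies lowest in complexes I, II, III and V.

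Of the members, 8 lie on chromosome 7, which carries Cic, and their differences ran from -0.16 for Cox6a2 to 0.19 for Cox6b2. The 2 within 20 Mb of Cic are Cox6b1 and Cox7a1, with differences of 0.038 and 0.033. The limit of 20 Mb is arbitrary, and how far beyond it the others lie, Cox6b2 among them, is not given here.

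Genes that build, supply or control the chain gave no call either. Assembly factors insert cofactors and join subunits. Of them, 0 of 15 of complex I, 0 of 4 of complex II, 0 of 6 of complex III and 0 of 19 of complex IV were called. The list for complex V was not of assembly factors alone, and 0 of its 4 genes were called. It also held regulatory factors and Atp5md, itself a membrane subunit of ATP synthase that the name rule did not match. The medians of these lists, in the same order, were 0.013, 0.027, 0.011, -0.023 and -0.024. Coa5, a complex IV assembly factor, differed by -0.16 (SE 0.066) and Cox16, another, by 0.16 (SE 0.080). Timmdc1 and Ndufaf6, assembly factors of complex I, differed by 0.17 (SE 0.078) and -0.092 (SE 0.056). Sdhaf4 and Sdhaf3 of complex II differed by 0.14 (SE 0.085) and -0.063 (SE 0.059), and Uqcc1 and Uqcc2 of complex III by 0.11 (SE 0.11) and -0.038 (SE 0.067). Atp5md and Atpaf1 of the complex V list differed by -0.066 (SE 0.085) and -0.022 (SE 0.061). Adjusted p for these 10 genes was 0.497 with limma for Coa5 and above it for the others.

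Among 23 regulators of mitochondrial biogenesis and mitochondrial DNA expression, 15 differences were above 0, with a median of 0.043 and 0 called. Ppargc1a, the coactivator PGC-1alpha that raises transcription of respiratory chain genes, measured 8.61, 8.69, 8.57 and 8.62 in wild-type and 9.01, 8.73, 8.77 and 9.03 in Cic-L-null arrays. All 4 mutants lay above all 4 wild-type arrays, as did those of 5.94% of all genes in either direction, and the difference was 0.26 (SE 0.079). Its unadjusted p of 0.00733 became 0.294 after limma's adjustment. Esrrg, a nuclear receptor that works with it, differed by 0.14 (SE 0.065, limma adjusted p = 0.566). Tfam and Tfb2m, which act directly in transcription of mitochondrial DNA, lay the other way, at -0.17 (SE 0.082, limma adjusted p = 0.597) and -0.14 (SE 0.077, limma adjusted p = 0.643).

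Substrate supply and carriers gave 0 calls. Of 15 genes for mobile carriers and ubiquinone synthesis, Cycs, the cytochrome c gene, differed by -0.14 (SE 0.070) and Coq2 by -0.22 (SE 0.11), with a list median of 0.0011. Of 16 tricarboxylic acid cycle genes, Suclg2 differed by -0.18 (SE 0.086) and Pdha1, a pyruvate dehydrogenase subunit, by 0.088 (SE 0.056), with a median of -0.0092. Of 17 glycolysis genes, Ldhb, a lactate dehydrogenase subunit, differed by -0.17 (SE 0.093) and the hexokinase gene Hk2 by 0.17 (SE 0.094), with a median of 0.0018.

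Of 16 mitochondrial carriers and uncoupling proteins, 0 were called. Slc25a27, the neuronal uncoupling protein UCP4, measured 8.67, 8.55, 8.43 and 8.54 in wild-type and 8.88, 8.78, 8.74 and 8.89 in Cic-L-null arrays. Every mutant lay above every wild-type array, with a difference of 0.28 (SE 0.067, limma adjusted p = 0.188). Slc25a10, the dicarboxylate carrier, measured 8.01, 8.02, 7.98 and 8.07 in wild-type and 7.95, 7.87, 7.94 and 7.73 in Cic-L-null arrays, again with no overlap, and differed by -0.15 (SE 0.064, limma adjusted p = 0.512). Over all genes the groups did not overlap in 5.94%, in either direction.

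**Figure D5:**
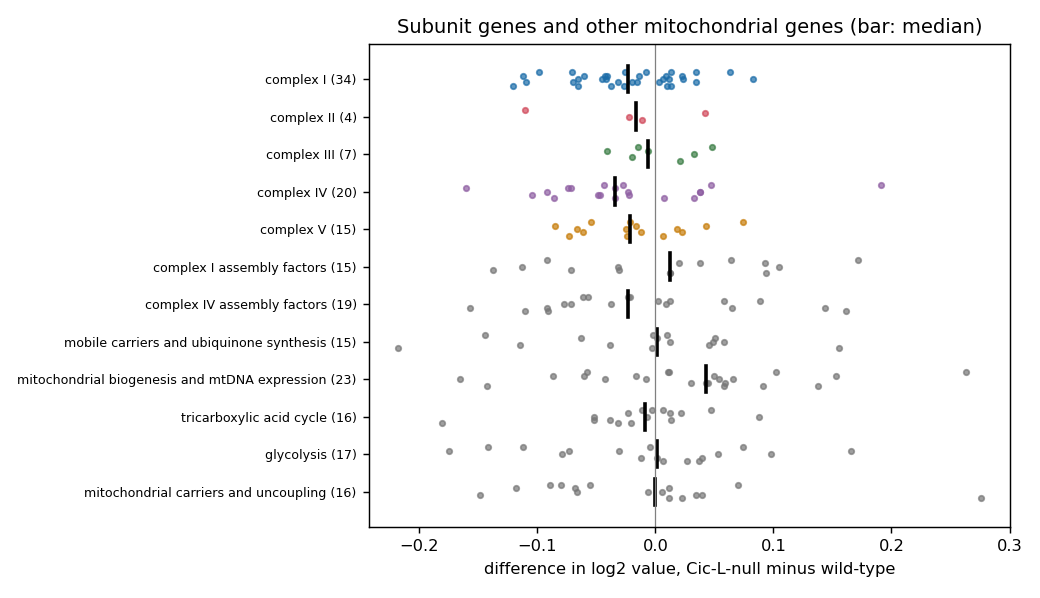
Difference in log2 value between Cic-L-null and wild-type cerebellum (x axis) for the genes of each complex and of 7 other mitochondrial or glycolytic gene lists (y axis, number of genes in parentheses). Points are genes, black bars are medians, and the points farthest to the right are Slc25a27 and Ppargc1a.

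At the level of single probe sets there were almost no calls over the whole array, so the count of calls does not set the chain apart. Of 449 probe sets that carried a member's symbol alone, 0 were called, beside 1 of 241576 (0.000414%) over the array (smallest limma adjusted p of a member probe set 0.615), and 8 (1.78%) had an unadjusted p under 0.05, beside 6.80% of all probe sets. In all, 261 differences were below 0 and 188 above, and the same count over all probe sets was not made. A further 26 probe sets of 11 members also carried another symbol and were left out.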

How the data were processed

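Total RNA of 8 cerebella was hybridised to 8 arrays. The table the authors deposited holds log2 values per probe set. The submitters' processing notes name RMA and Affymetrix Power Tools, and give no version or genome build. Array medians lay between 7.82 and 7.88. Of 241576 probe sets, the 212097 with 1 symbol in the old platform annotation were used. Symbols were updated through GRCm38.p6 synonyms, and a gene value is the mean of its probe sets (median 4 per member, 8 over all genes). Probe sets can also bind RNA of near-identical copies, which was not tested.

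All genes entered a linear model per gene with group as the only term (limma 3.58.1, R 4.3.3, moderated variance, no filter) and were called at a Benjamini-Hochberg adjusted p under 0.05 over all 20352 genes. Groups and replicate numbers came from the titles. Each p-value sets a group difference against the spread between these animals, with the variance moderated across genes in the main fit. The number of arrays limits the precision.

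Members and lists were chosen with earlier results of these data known. Named genes are, per complex, the 4 with the smallest p and the 1 with the largest difference, all Sdh genes, the isoform pairs, Ndufa4 and Ndufa4l2, Emc8, and the 2 genes with the smallest p per other list. Genes outside this rule (Cox7b, Magt1, Ndufc1, Tfam, Tfb2m, neighbours and others cited as examples) were chosen after their values were seen. Alternatives covered combination and filtering of probe sets, normalisation, variance model, weights, covariates and each array left out. Genes of mitochondrial DNA are not analysed here.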

Additional observations from a re-analysis of the deposited data

Results flagged for a closer look

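In 10 of 162 groups of 4 arrays (81 genes in each genotype), 1 array stood apart from the other 3 by Dixon's criterion, which chance meets in about 1 of 20 groups. Ndufv1 was high in Cic-L-null replicate 4, at 10.82, against 10.79 to 10.79 in the rest of its group. Ndufs6 was low in wild-type replicate 1, at 9.967, against 10.29 to 10.32 in the rest of its group. Ndufs5 was high in Cic-L-null replicate 1, at 9.449, against 9.312 to 9.335 in the rest of its group. Ndufb6 was high in Cic-L-null replicate 1, at 11.34, against 11.22 to 11.24 in the rest of its group. Ndufv3 was low in Cic-L-null replicate 2, at 9.469, against 9.485 to 9.488 in the rest of its group. Ndufa12 was low in Cic-L-null replicate 2, at 9.246, against 9.498 to 9.524 in the rest of its group. Sdha was high in Cic-L-null replicate 2, at 11.31, against 11.17 to 11.19 in the rest of its group. Cox6a1 was low in Cic-L-null replicate 4, at 10.25, against 10.43 to 10.44 in the rest of its group. Atp5k was low in wild-type replicate 3, at 9.74, against 9.917 to 9.953 in the rest of its group. Emc8 was high in Cic-L-null replicate 2, at 8.21, against 8.108 to 8.117 in the rest of its group. Of the 10, 4 lay in Cic-L-null replicate 2 and 1 in wild-type replicate 1. The Sdha array is the mutant in which the 3 lowest probe sets lay within the wild-type range.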

How the results depend on the processing

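Under all 18 alternatives, 0 members and 0 genes of the other mitochondrial and glycolytic lists were called, and 0 member probe sets under the 10 tried for them. In the unmoderated test, with the replicate block and without Cic-L-null replicate 2, 0 genes were called over all genes. The count of 0 members was therefore fixed in these settings and says nothing about the members. The smallest adjusted p of any member, with limma save in the unmoderated test, was 0.220 with array weights. The median difference of members stayed below 0, between -0.037 (Cic-L-null replicate 1 left out) and -0.0013 (wild-type replicate 4 left out). The median of complex II changed sign with the median of probe sets (0.016), with brighter probe sets (0.010), with the Y-linked covariate (0.0036) and without Cic-L-null replicate 2 (0.00021). That of complex III did so with array weights (0.00042) and without Cic-L-null replicate 3 (0.018) or 4 (0.021) or wild-type replicate 1 (0.0090) or 4 (0.020), and that of complex I without wild-type replicate 4 (0.00069). Of 31 named members, none of them called, at most 4 changed sign under any 1 alternative. Over all genes the 28 calls rose to 130 when the variance was modelled as trended and robust, to 69 when dim genes were left out and to 54 when arrays were weighted. They fell to 18 when Y-linked expression entered as a covariate, to 2 when a gene was the median of its probe sets, and to 0 both in the unmoderated test and with the replicate block. They ranged from 0 to 37 with 1 array left out. The cause was not tested, except that fewer genes enter above the dim limit. With the 0 calls of the block and of the unmoderated test, the counts at an unadjusted p under 0.05 were 2125 and 1860 genes. The titles give same-numbered arrays a shared number and nothing more, so whether they form pairs is not known. Deviations of same-numbered arrays correlated at 0.22, 0.00033, 0.21 and 0.026. Wild-type replicates 1 and 3 correlated best with their own number, and wild-type replicates 2 and 4 with other numbers. With the replicate block the smallest member adjusted p was 0.410. The intervals given are unadjusted, so an interval can leave out 0 for a gene that is not called, as for Ppargc1a and Slc25a27.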
